A study of Homo sapiens with 12 samples.

Results

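RNA levels were followed for 53 genes that run human mitosis, the cyclins and kinases of mitotic entry, the spindle checkpoint, the kinetochore, the chromosomal passenger complex, mitotic kinesins, spindle factors, cytokinesis proteins and condensin. The genes were taken by symbol from a list drawn up with earlier results of these data known. Their counts, set below beside shares of all genes, are thus descriptions. They were matched to Ensembl identifiers, and 53 of 53 were found among the 58302 genes of the table. The cells were the mesothelioma line NCI-H226, labelled NF2 null and sensitive to GNE-7883, a small-molecule inhibitor of the TEAD transcription factors, and its resistant derivative NCI-H226_CL3. The derivative was grown in stepwise higher inhibitor, from 0.25 to 3 µM, and no other resistant line was profiled, so line differences are those of a pair of cultures. Each line was incubated with DMSO or with GNE-7883, which gave 4 groups of 3 libraries: sensitive DMSO, sensitive GNE-7883, resistant DMSO and resistant GNE-7883. The sources used here do not give the dose and length of that incubation, so whether they were alike in both lines is not known. Whether the 3 libraries of a group are separate cultures is not stated in the labels, so the p-values reflect only library-to-library spread, which may be technical.

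TEAD proteins bind DNA and carry the co-activators YAP and TAZ, which the Hippo pathway and its upstream member NF2 hold back. Mitotic genes are made in waves: their RNA is low in resting cells and early in the cycle, and rises towards mitosis. The DREAM complex keeps many of their promoters shut in resting cells, and the MuvB core with B-Myb and then FOXM1 opens them later. In promoters of this class the cell cycle homology region (CHR element) is the known contact of MuvB, and the CCAAT box is the known contact of the factor NF-Y.

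Promoter letters show how far the genes share these elements. Windows from 250 bases before to 50 after the annotated start (RefSeq, GRCh38.p14) were at hand for 46 of the 53 genes, as 56 windows; AURKA, BIRC5, BUB3, FOXM1, TPX2, TTK and UBE2C had none in the table. The letters TTTGAA or TTCGAA, on either strand, stood in 73.2% of these windows and in 16.4% of the 35116 windows of all genes. The letters CCAAT, on either strand, stood in 73.2% and 34.6%, and both motifs in 57.1% and 6.38%. Counted by gene, 37 of the 46 had a CHR match and 36 a CCAAT match, against 19.5% and 39.7% of all 27305 genes of the table. Of the 54 CHR matches, 38 lay between 50 bases before the start and the end of the window. Windows of the same gene can overlap, so the same letters can be counted more than once, as for ZWINT and CDC25C. The other 9 genes, AURKB, CCNA2, CCNB1, CENPE, KIF20A, KIF2C, NCAPH, PTTG1 and SPC24, had no such letters in the window, which says nothing of the factors that bind there.

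**Figure D1:**
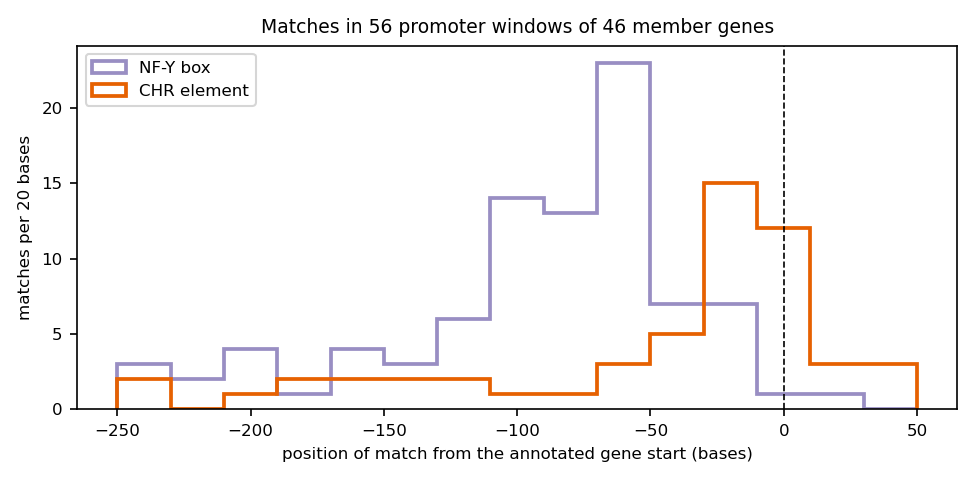
Number of motif matches per 20 bases (y axis) by distance from the annotated gene start in bases (x axis), in 56 windows of 46 genes; the orange line is the CHR element and the purple line the CCAAT box that NF-Y binds. Of the 54 CHR matches, 38 lie from 50 bases before the start onward, and the CCAAT matches peak further upstream. A match in overlapping windows of the same gene is counted in each.

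The stretches below run from 120 bases before to 30 after the start, all on the plus strand, with CHR and CCAAT letters of either strand in capitals. They are shown because the genes differ in motif and in response. CDC20 and CENPA had the deepest falls of their function groups, and PLK1 is a kinase of mitotic entry. HMMR carries a doubled CHR match, and ANLN has a CHR match with no CCAAT in this stretch. INCENP has both motifs and 1 of the smallest falls. CCNB1 and KIF20A have CCAAT and neither TTTGAA nor TTCGAA, and no other letters were sought for the CHR element. The positions are chr1:43358861-43359010 for CDC20, chr2:26785936-26786085 for CENPA, chr16:23678769-23678918 for PLK1, chr5:163460512-163460661 for HMMR, chr7:36389742-36389891 for ANLN, chr11:62123891-62124040 for INCENP, chr5:69167030-69167179 for CCNB1 and chr5:138178992-138179141 for KIF20A.
CDC20: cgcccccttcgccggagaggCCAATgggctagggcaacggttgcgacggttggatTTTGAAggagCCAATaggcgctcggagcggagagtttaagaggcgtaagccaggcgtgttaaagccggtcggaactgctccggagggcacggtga
CENPA: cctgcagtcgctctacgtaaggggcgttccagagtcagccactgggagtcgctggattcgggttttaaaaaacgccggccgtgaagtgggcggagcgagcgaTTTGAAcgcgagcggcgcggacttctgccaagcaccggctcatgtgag
PLK1: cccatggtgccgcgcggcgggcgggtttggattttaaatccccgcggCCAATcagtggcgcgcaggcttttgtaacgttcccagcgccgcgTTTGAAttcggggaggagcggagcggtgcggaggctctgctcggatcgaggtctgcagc
HMMR: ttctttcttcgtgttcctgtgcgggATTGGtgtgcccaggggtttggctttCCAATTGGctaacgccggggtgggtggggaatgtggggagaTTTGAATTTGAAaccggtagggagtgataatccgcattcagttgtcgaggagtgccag
ANLN: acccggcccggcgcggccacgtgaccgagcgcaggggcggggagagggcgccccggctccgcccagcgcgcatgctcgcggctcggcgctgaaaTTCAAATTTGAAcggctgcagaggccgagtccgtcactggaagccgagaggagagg
INCENP: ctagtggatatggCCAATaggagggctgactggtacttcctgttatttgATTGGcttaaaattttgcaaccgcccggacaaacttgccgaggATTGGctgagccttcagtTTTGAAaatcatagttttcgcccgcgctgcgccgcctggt
CCNB1: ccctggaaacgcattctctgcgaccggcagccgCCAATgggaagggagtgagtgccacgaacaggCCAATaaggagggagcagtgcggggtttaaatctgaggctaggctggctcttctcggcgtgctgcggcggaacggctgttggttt
KIF20A: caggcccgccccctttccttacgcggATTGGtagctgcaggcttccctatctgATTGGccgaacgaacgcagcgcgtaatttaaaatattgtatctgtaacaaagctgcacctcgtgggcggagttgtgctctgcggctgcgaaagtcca

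Total counts ran from 31878934 to 46962645 per library, and the lowest count of any of the 53 genes in any library was 149. All 53 passed the filter on low counts, so none was left out. Levels are given as CPM, counts relative to the size of the library, scaled by TMM, a correction for library composition. A gene is said to have risen or fallen at a Benjamini-Hochberg adjusted p under 0.05 in edgeR's quasi-likelihood test over 18035 genes, with 3 libraries in each group. Errors of log2 fold changes are standard errors, and errors of levels are SDs over 3 libraries. Replicate 2 of sensitive DMSO stood apart: by chi-square per degree of freedom over genes it differed from replicates 1 and 3 by 39.7 and 45.7, against 3.33 between that pair and 3.52 to 11.4 within the other groups. Of the 10 members with the longest transcripts, 7 were under 90% of the mean of replicates 1 and 3 in this library, with ASPM at 56.2% and CENPE at 62.9%, while NCAPD2, BUB3 and MAD2L1 were at 97.2%, 101.8% and 108.8%. The 10 with the shortest transcripts were at 103.8% to 123%. Values without this library are given beside the results that it moved most.

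In sensitive cells the inhibitor lowered the whole set. All 53 genes fell, where 28.4% of all genes tested fell, and 43 fell at least 2-fold, where 6.4% of all genes did. The median log2 fold change of the 53 was -1.25, against 0.02 over all genes, and single genes ran from -1.77 ± 0.08 for CDC20 to -0.67 ± 0.10 for SMC4. As levels, the sensitive GNE-7883 mean was 29.3% to 62.9% of the DMSO mean, with a median of 42.0%. The DMSO and GNE-7883 libraries did not overlap for any of the 53 genes, where 29.8% of all genes were lower without overlap. Together the 53 genes took 0.726% ± 0.0237 of counts in sensitive DMSO and 0.319% ± 0.00459 in sensitive GNE-7883. In bulk RNA, fewer cells in mitosis and less RNA per mitotic cell cannot be told apart. Without replicate 2 of sensitive DMSO the count was again 53 and the median -1.25, with single genes from -1.66 for CDC20 to -0.77 for BUB3.

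In resistant cells incubation with GNE-7883 moved the set little. None of the 53 genes rose and 13 fell, where 3.97% of all genes fell. None changed 2-fold, as 0.493% of all genes did upwards and 0.2% downwards. The median log2 fold change was -0.15 against 0.00 over all genes, with single genes from -0.29 ± 0.08 for AURKB to 0.03 ± 0.08 for SPC24. The estimate was negative for 52 of 53 genes, where 50.5% of all genes were negative, and 35 were lower without overlap of libraries, where 16.2% of all genes were. The number that passed the test was not stable to single libraries: it was 1 without replicate 1 or replicate 3 of resistant DMSO, 2 without replicate 1 or replicate 3 of resistant GNE-7883, 6 without replicate 2 of resistant GNE-7883, 7 without replicate 3 of sensitive GNE-7883, 8 without replicate 2 of resistant DMSO and 27 without replicate 2 of sensitive DMSO. AURKA alone passed under all 20 alternative settings, and the other 12 passed under 5 to 16 of them. The share of counts taken by the 53 genes was 0.872% ± 0.0276 with DMSO and 0.786% ± 0.0214 with GNE-7883 in this line.

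The difference between those responses was tested directly, with the dose and length of incubation unknown for each line. It was positive and passed for 53 of 53 genes, where 19% of all genes passed in that direction, and it reached 1 on the log2 scale for 33, where 4.18% of all genes did. The median difference was 1.07 against -0.01 over all genes, from 0.53 ± 0.14 for SMC4 to 1.49 ± 0.11 for CDC20. Without replicate 2 of sensitive DMSO it ran from 0.63 for BUB3 to 1.45 for KIF18B. With inhibitor present, all 53 genes were higher in resistant than in sensitive cells, where 30.7% of all genes were, and 37 were higher at least 2-fold, where 8.33% of all genes were. The median of that difference was 1.17, from 0.47 ± 0.04 for NCAPD2 to 2.13 ± 0.08 for ANLN. This comparison and the sensitive response share the sensitive GNE-7883 libraries. Set against untreated sensitive cells, the resistant GNE-7883 mean was 66.3% to 149.7% of the sensitive DMSO mean, with a median of 95.6%. In that pair of groups 10 genes were higher without overlap, where 26.2% of all genes were, 17 were lower without overlap, where 26.9% of all genes were, and 26 overlapped.

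**Figure D2:**
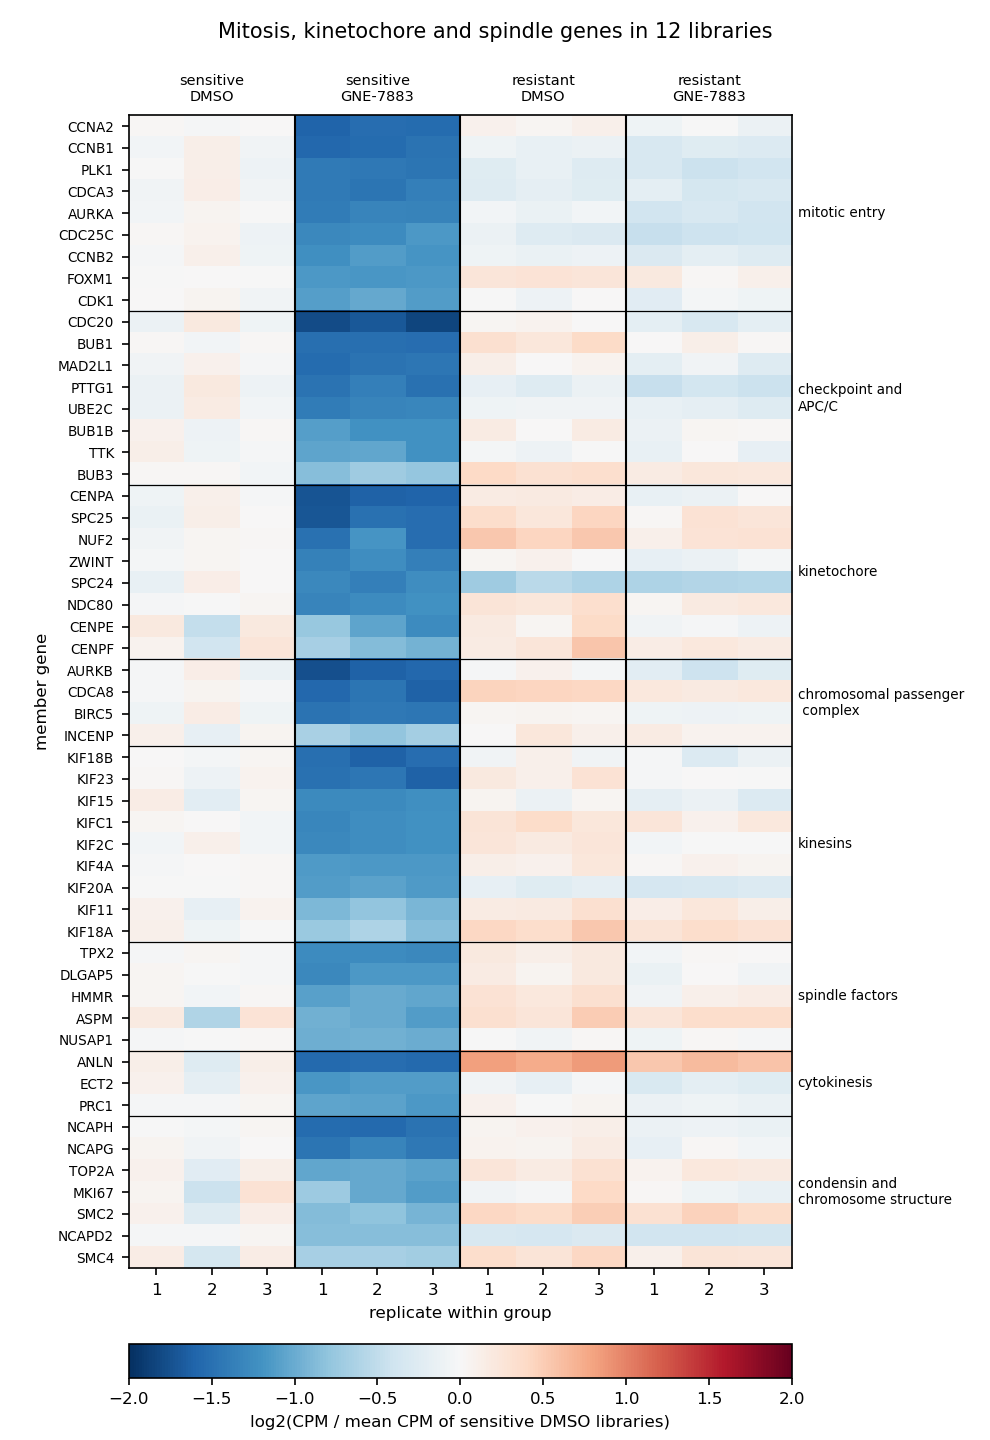
Each row is 1 of the 53 genes, ordered by function group, and each column 1 of the 12 libraries; the colour is the log2 ratio of CPM to the mean of the 3 sensitive DMSO libraries, blue lower and red higher. The 3 sensitive GNE-7883 columns are blue in every row, and the 6 resistant columns stay near the sensitive DMSO columns, with ANLN red and SPC24 pale blue.

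**Figure D3:**
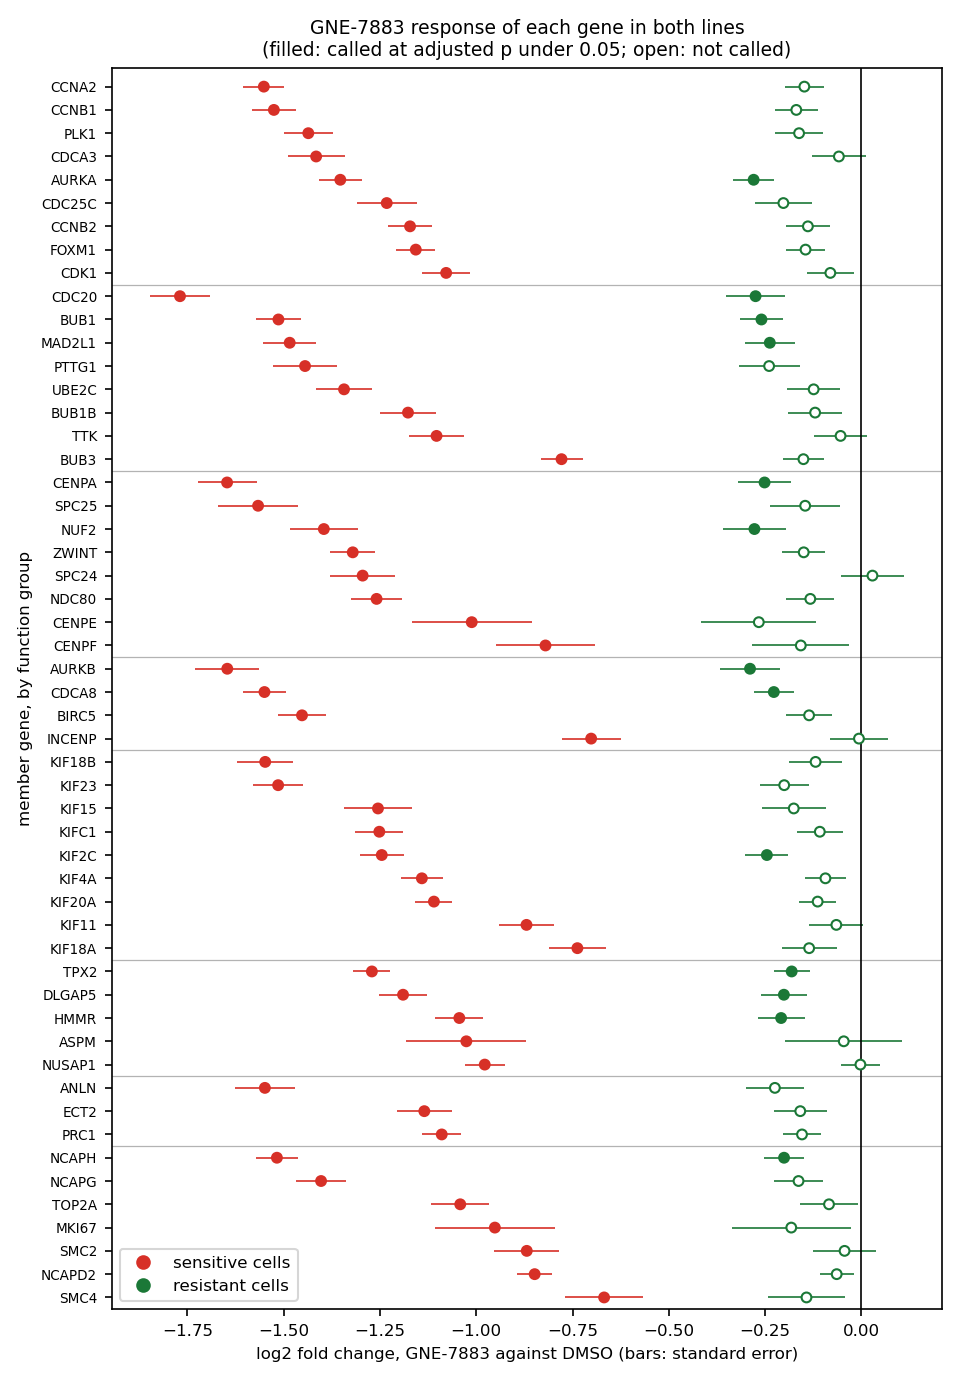
Log2 fold change of GNE-7883 against DMSO (x axis, bars are standard errors) for each gene (y axis, by function group), in sensitive cells in red and in resistant cells in green; filled points passed the test. The red points lie between -1.77 and -0.67 and the green points between -0.29 and 0.03.

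Between the lines in DMSO the set was split. Of the 53 genes 20 were higher in resistant cells, where 24.2% of all genes were, 6 were lower, where 24.4% of all genes were, and 27 did not pass. The median log2 difference was 0.11 against 0.00 over all genes, from -0.62 ± 0.08 for SPC24 to 0.81 ± 0.08 for ANLN. Without overlap of libraries, 24 were higher and 9 lower, where 27.4% and 26.5% of all genes were. The 6 lower genes were CDC25C, PLK1, CDCA3, SPC24, KIF20A and NCAPD2, of which CDC25C passed under 14 of 20 alternative settings and the others under 19 or 20. Scaling by total counts alone gave 28 higher and 2 lower genes, and 13 were higher without replicate 3 of resistant DMSO.

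Mitotic entry is driven by CDK1 with cyclins A and B, switched on by the phosphatase CDC25C and helped by the kinases PLK1 and AURKA. All 9 genes of this group fell at least 2-fold in sensitive cells, with a median log2 fold change of -1.35. CCNA2, which encodes cyclin A (ENSG00000145386, chr4:121816444-121823933), fell most in the group: its libraries were at 106, 104 and 105 CPM in sensitive DMSO and 34.8, 36.5 and 36.3 in sensitive GNE-7883, and at 111, 108 and 113 in resistant DMSO and 98.6, 105 and 96.5 in resistant GNE-7883. The 3 sensitive GNE-7883 libraries were about alike and far below the other 9. The log2 fold change was -1.55 ± 0.05 (adjusted p = 2.2e-12) in sensitive and -0.15 ± 0.05 (adjusted p = 0.0872) in resistant cells, and the difference of 1.40 ± 0.07 was the largest of the group. CDK1, the kinase itself (ENSG00000170312, chr10:60778331-60794852), fell least of the group, from 157, 162 and 149 to 72.7, 76.8 and 72.1 CPM, a log2 fold change of -1.08 ± 0.06. In resistant cells CDK1 was at 155, 145 and 156 CPM in DMSO and 133, 152 and 146 in GNE-7883, groups that overlapped.

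AURKA, a kinase of centrosome maturation, was the steadiest of the small falls in resistant cells. It was at 99, 107 and 102 CPM in sensitive DMSO and 38.8, 41.2 and 40.5 in sensitive GNE-7883. In the resistant line it was at 98.7, 93.1 and 98.9 CPM in DMSO and 78.5, 82.4 and 78.5 in GNE-7883, so that the treated libraries lay below the untreated ones in both lines. The log2 fold change was -1.35 ± 0.06 in sensitive and -0.28 ± 0.05 (adjusted p = 0.00337) in resistant cells, and over 20 alternative settings the resistant value ran from -0.31 to -0.25. FOXM1, the transcription factor of late cell cycle genes, was the only gene of the group that was higher in resistant cells in DMSO. FOXM1 was at 356, 359 and 354 CPM in sensitive DMSO, 160.2, 159 and 159.9 in sensitive GNE-7883, 423, 431 and 419.7 in resistant DMSO and 406, 361 and 384 in resistant GNE-7883. The line difference in DMSO was 0.25 ± 0.05 (adjusted p = 0.00054). CDCA3, a regulator of mitotic entry, lay on the other side, at 35.6, 41.2 and 35.5 CPM in sensitive DMSO and 31.2, 33 and 31.6 in resistant DMSO, a line difference of -0.23 ± 0.07 (adjusted p = 0.0129), or -0.15 (adjusted p = 0.048) without replicate 2 of sensitive DMSO. With inhibitor CDCA3 was at 14, 13.6 and 14.5 CPM in sensitive and 32.7, 29.4 and 29.9 in resistant cells. CCNB1 and CCNB2, the B cyclins, had log2 fold changes of -1.53 ± 0.06 and -1.17 ± 0.06 in sensitive cells, and neither passed the test in resistant cells or between the lines in DMSO.

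The spindle checkpoint holds the anaphase-promoting complex (APC/C) and its activator CDC20 in check until chromosomes are attached, and BUB1, BUB1B, BUB3, MAD2L1 and the kinase TTK are its parts. UBE2C is an enzyme that works with the APC/C, and PTTG1 (securin) is a protein it removes. All 8 genes fell in sensitive cells, 7 of them at least 2-fold, with a median of -1.39. CDC20 (ENSG00000117399, chr1:43358955-43363203) had the deepest fall of all 53 genes: its libraries went from 140.2, 175 and 143 CPM in sensitive DMSO to 44.2, 47.3 and 42.9 in sensitive GNE-7883. In resistant cells they went from 157, 161 and 153 to 133, 122 and 134 CPM. Treated libraries were lower without overlap in both lines, and the resistant GNE-7883 mean was 82.7% of the resistant DMSO mean. The log2 fold change was -1.77 ± 0.08 (adjusted p = 3.7e-11) in sensitive and -0.28 ± 0.08 (adjusted p = 0.0328) in resistant cells, where it passed under 14 of 20 alternative settings, and the difference was 1.49 ± 0.11.

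BUB3 stood at the other end of the checkpoint genes. BUB3 was at 148, 147 and 140.3 CPM in sensitive DMSO, 80.3, 89 and 84.5 in sensitive GNE-7883, 192, 179 and 184 in resistant DMSO and 162, 170.2 and 167 in resistant GNE-7883. It fell by less than 2-fold in sensitive cells (-0.78 ± 0.05), and its line difference in DMSO, 0.35 ± 0.05 (adjusted p = 5.5e-05), was the largest of the group. BUB1, the checkpoint kinase, was at 109, 103 and 109 CPM in sensitive DMSO, 37.8, 37.6 and 37.3 in sensitive GNE-7883, 134, 126 and 141 in resistant DMSO and 108, 117 and 109 in resistant GNE-7883. It fell in both lines, with log2 fold changes of -1.51 ± 0.06 in sensitive and -0.26 ± 0.06 (adjusted p = 0.00762) in resistant cells, and was higher in resistant cells in DMSO by 0.31 ± 0.06. MAD2L1, the checkpoint protein that binds CDC20, was at 41.9, 46.3 and 43.2 CPM in sensitive DMSO, 15.1, 15.8 and 16.1 in sensitive GNE-7883, 47.7, 43.8 and 46.1 in resistant DMSO and 38.4, 41.5 and 36.7 in resistant GNE-7883. It too fell in both lines, with log2 fold changes of -1.48 ± 0.07 in sensitive and -0.24 ± 0.06 (adjusted p = 0.0301) in resistant cells. PTTG1 had the most negative line difference of the group, -0.18 ± 0.08 (adjusted p = 0.0736), which did not pass; without replicate 2 of sensitive DMSO it was -0.07, and TTK at -0.08 was lowest. Its DMSO libraries, at 48.1, 59.8 and 48.9 CPM in sensitive and 46.7, 43.6 and 48.4 in resistant cells, overlapped, while its GNE-7883 libraries, at 18.8, 20.3 and 18.5 and 38.1, 40.6 and 38.7 CPM, did not.

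**Figure D4:**
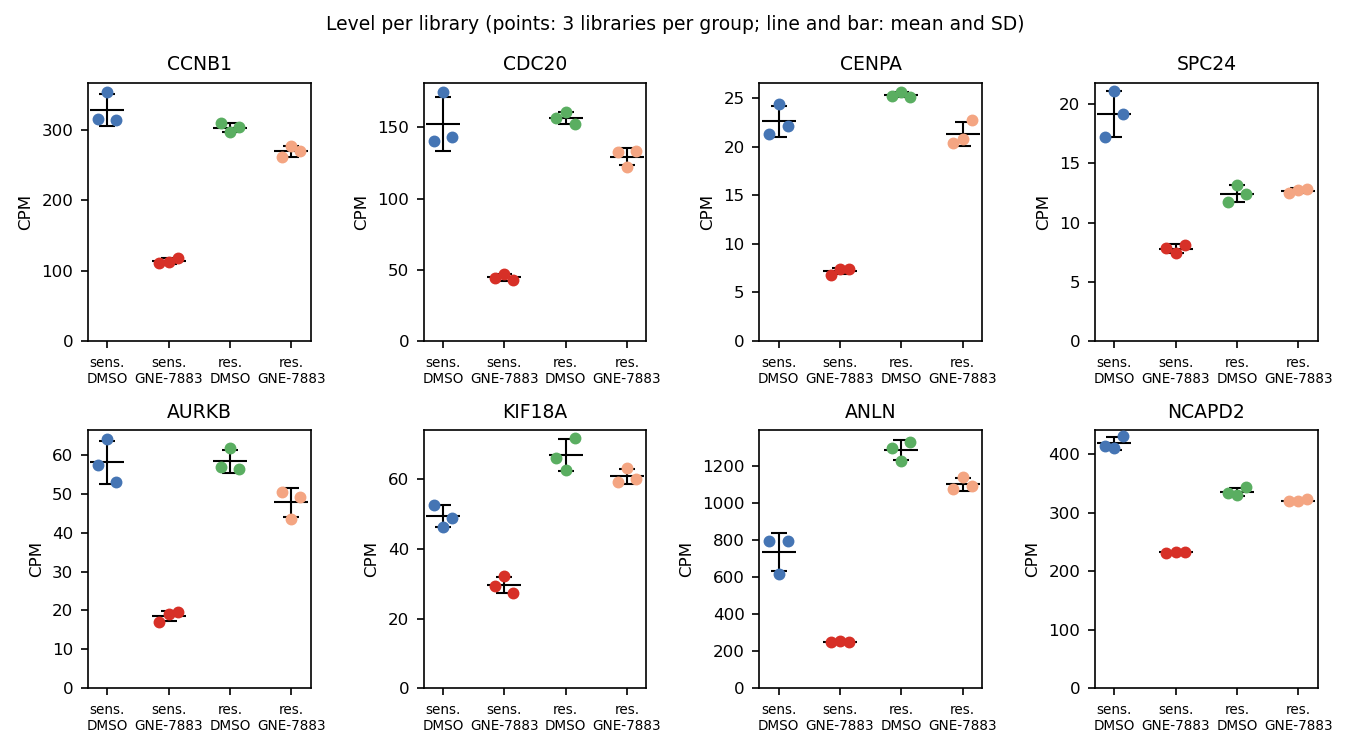
CPM (y axes, from 0) of 8 genes in the 4 groups (x axis), each point 1 library, with the mean and SD of 3 libraries as line and bar. In each panel the sensitive GNE-7883 libraries are lowest; ANLN and KIF18A are higher and SPC24 and NCAPD2 lower in resistant than in sensitive DMSO.

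Kinetochores join chromosomes to microtubules: CENPA is the histone that marks the centromere, the NDC80 complex (NDC80, NUF2, SPC24, SPC25) grips the microtubule, and CENPE is a motor. All 8 genes of this group fell in sensitive cells, 7 at least 2-fold, with a median of -1.31. CENPA (ENSG00000115163, chr2:26764289-26801067) fell most, from 21.3, 24.4 and 22.1 CPM to 6.82, 7.40 and 7.43 CPM, a log2 fold change of -1.65 ± 0.08. In resistant cells CENPA was at 25.2, 25.6 and 25.2 CPM in DMSO and 20.3, 20.8 and 22.7 in GNE-7883, a fall of -0.25 ± 0.07 (adjusted p = 0.0333) with no overlap. CENPF, a long kinetochore protein, fell least, -0.82 ± 0.13 in sensitive cells, or -0.98 without replicate 2 of sensitive DMSO. Its libraries were at 104, 75.9 and 116 CPM in sensitive DMSO, 61.9, 54.2 and 51.2 in sensitive GNE-7883, 111, 117 and 144 in resistant DMSO and 109.6, 113 and 109.9 in resistant GNE-7883, so that replicate 2 of sensitive DMSO was the lowest untreated one. Its line difference in DMSO, 0.33 ± 0.13 (adjusted p = 0.0412), was 0.18 without that library and 0.19 without replicate 3 of resistant DMSO, passed in neither case, and passed under 11 of 20 alternative settings.

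The 4 members of the NDC80 complex did not move alike between the lines. SPC24 (ENSG00000161888, chr19:11131520-11155808) was lower in resistant DMSO, at 11.7, 13.2 and 12.4 CPM, than in sensitive DMSO, at 17.2, 21.1 and 19.2 CPM, a difference of -0.62 ± 0.08 (adjusted p = 1e-05). Its partner SPC25 (ENSG00000152253, chr2:168834132-168913371) was higher, at 17.2, 15.8 and 18.3 against 12.4, 14.7 and 13.5 CPM, a difference of 0.34 ± 0.09 (adjusted p = 0.00649). NUF2 was also higher, at 36.5, 34 and 36.5 against 24.1, 25.9 and 25.7 CPM (0.50 ± 0.08, adjusted p = 9.9e-05), as was NDC80 by 0.28 ± 0.06. These calls of 1 lower and 3 higher subunits held under all 20 alternative settings. With inhibitor SPC24 was at 7.87, 7.40 and 8.12 CPM in sensitive and 12.5, 12.7 and 12.9 in resistant cells, and SPC25 at 4.15, 4.83 and 4.72 and 13.8, 16.6 and 16 CPM. In sensitive cells all 4 fell, with log2 fold changes of -1.30 ± 0.09 for SPC24, -1.57 ± 0.10 for SPC25, -1.40 ± 0.09 for NUF2 and -1.26 ± 0.07 for NDC80. SPC25 had the largest difference of responses in the kinetochore group, 1.42 ± 0.14. NUF2 was the 1 subunit that passed the test in resistant cells, though under 10 of 20 alternative settings only: it was at 27.1, 30.5 and 30.7 CPM with inhibitor, a fold change of -0.28 ± 0.08 (adjusted p = 0.043), and at 8.93, 11.1 and 8.75 CPM in sensitive GNE-7883.

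The chromosomal passenger complex corrects wrong attachments and joins AURKB, its kinase, to INCENP, BIRC5 (survivin) and CDCA8 (borealin). Its 4 genes had the deepest median fall of the 8 function groups in sensitive cells, -1.50, though INCENP stood apart from the others. AURKB (ENSG00000178999, chr17:8204733-8210600) went from 57.5, 64 and 53 to 17.2, 19 and 19.5 CPM in sensitive cells, a log2 fold change of -1.65 ± 0.08 (adjusted p = 1.4e-10), and its difference of responses was 1.36 ± 0.11, close to the 1.32 ± 0.08 of CDCA8. In resistant cells AURKB went from 56.9, 61.7 and 56.4 to 50.4, 43.6 and 49.2 CPM, which was the largest fall of the 53 genes there (-0.29 ± 0.08, adjusted p = 0.0306). INCENP (ENSG00000149503, chr11:62123973-62153163) went from 61.3, 51.3 and 59.5 to 36.6, 33.3 and 35.9 CPM in sensitive cells, less than 2-fold (-0.70 ± 0.08). In resistant cells INCENP was at 57.4, 66.9 and 61.5 CPM in DMSO and 64.4, 60.1 and 60.4 in GNE-7883, and these libraries overlapped. CDCA8 was at 87.5, 93 and 87.7 CPM in sensitive DMSO, 30.1, 32.4 and 29.2 in sensitive GNE-7883, 121, 120.3 and 119.7 in resistant DMSO and 103, 102 and 104 in resistant GNE-7883. It fell in both lines (-1.55 ± 0.06 and -0.23 ± 0.05, adjusted p = 3.1e-12 and 0.0124). With all libraries it was the 1 gene of the complex that was higher in resistant cells in DMSO (0.43 ± 0.05, adjusted p = 5.3e-06). BIRC5 fell in sensitive cells (-1.45 ± 0.06) and did not pass in resistant cells (-0.14 ± 0.06, adjusted p = 0.199). Its line difference in DMSO, 0.05, was 0.14 without replicate 2 of sensitive DMSO and then passed (adjusted p = 0.0093), as it did under 1 of 20 alternative settings.

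Mitotic kinesins are motors that build the spindle, move chromosomes and bundle the midzone. All 9 fell in sensitive cells, 7 at least 2-fold, with a median of -1.25. The largest and smallest falls belonged to a pair of relatives that act at microtubule plus ends. KIF18B (ENSG00000186185, chr17:44924709-44947711) went from 58.1, 56.5 and 59.5 to 20.3, 19 and 20.2 CPM, and was at 55.1, 62.2 and 55.3 CPM in resistant DMSO and 57, 48.2 and 53.7 in resistant GNE-7883. KIF18A (ENSG00000121621, chr11:28020620-28108308) went from 52.8, 46.4 and 49 to 29.4, 32.1 and 27.5 CPM, and was at 66.1, 62.7 and 71.9 CPM in resistant DMSO and 59.1, 63.3 and 60.1 in resistant GNE-7883. The log2 fold change in sensitive cells was thus -1.55 ± 0.07 for KIF18B and -0.74 ± 0.07 for KIF18A; the direct difference between these 2 genes was not tested. The responses of the lines differed by 1.43 ± 0.10 for KIF18B, the largest of the kinesins, and by 0.60 ± 0.10 for KIF18A. In DMSO, KIF18A was higher in resistant cells by 0.44 ± 0.07 (adjusted p = 0.0001), again the largest of the group, and KIF18B did not differ by the test (-0.01 ± 0.07, adjusted p = 0.901).

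KIF2C, which takes microtubules apart at centromeres, was the only kinesin that passed as lower in resistant cells with all libraries. It was at 85.2, 95.1 and 85.7 CPM in sensitive DMSO, 36.4, 37.4 and 38.4 in sensitive GNE-7883, 105, 100.2 and 105 in resistant DMSO and 85.3, 88.1 and 88.2 in resistant GNE-7883. The fold change was -1.25 ± 0.06 in sensitive and -0.25 ± 0.06 (adjusted p = 0.0112) in resistant cells, and the resistant GNE-7883 libraries overlapped those of sensitive DMSO. The resistant fall of KIF2C passed under 16 of 20 alternative settings. That of KIF23, -0.20, passed under 3 of 20, also without replicate 2 of sensitive DMSO (adjusted p = 0.00838). All 9 kinesins had negative estimates in resistant cells. KIF20A, a motor of cytokinesis, was the only kinesin lower in resistant cells in DMSO, at 239.5, 227 and 237 against 266, 266 and 271 CPM (-0.19 ± 0.05, adjusted p = 0.0032). With inhibitor it was at 123, 127 and 122 CPM in sensitive and 212, 215 and 222 in resistant cells. The 6 kinesins higher in resistant DMSO were KIF11, KIF18A, KIF23, KIF2C, KIF4A and KIFC1, by 0.15 to 0.44; without replicate 3 of resistant DMSO, KIF11, KIF23 and KIF4A did not pass, and KIF4A was at 0.09. KIF11, the motor that pushes spindle poles apart, had a log2 fold change of -0.87 ± 0.07 in sensitive cells, and KIF23, a motor of the central spindle, one of -1.51 ± 0.07.

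Spindle factors organise microtubules around chromosomes and poles. All 5 fell in sensitive cells, with a median of -1.04. TPX2, the activator of AURKA (ENSG00000088325, chr20:31739271-31801805), fell most with all libraries: it was at 325, 338 and 324 CPM in sensitive DMSO, 137, 138 and 134 in sensitive GNE-7883, 377, 359 and 377 in resistant DMSO and 316, 334 and 331 in resistant GNE-7883. It fell in both lines, with log2 fold changes of -1.27 ± 0.05 in sensitive and -0.18 ± 0.05 (adjusted p = 0.0241) in resistant cells, and its resistant GNE-7883 libraries overlapped those of sensitive DMSO. NUSAP1, a microtubule binder, fell least: it was at 92.1, 93.1 and 94.4 CPM in sensitive DMSO, 47.1, 48 and 46.7 in sensitive GNE-7883, 92.2, 88.7 and 94.8 in resistant DMSO and 88.1, 95 and 92 in resistant GNE-7883. Here 3 of the 4 groups overlapped and sensitive GNE-7883 alone was apart, at a fold change of -0.98 ± 0.05. HMMR, a spindle and hyaluronan receptor protein, was at 111, 104 and 109.8 CPM in sensitive DMSO, 50.8, 54.1 and 52.7 in sensitive GNE-7883, 132, 125 and 135 in resistant DMSO and 104, 116 and 120.05 in resistant GNE-7883. DLGAP5, a spindle assembly protein, was at 90.9, 88.4 and 87.5, 36.6, 40.3 and 40.1, 99.6, 91.9 and 102 and 81, 89.2 and 84.9 CPM in the same groups in that order. Both fell in resistant cells, with log2 fold changes of -0.21 ± 0.06 and -0.20 ± 0.06, near the threshold (adjusted p = 0.0438 and 0.0477), and they passed under 5 and 6 of 20 alternative settings.

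ASPM, a spindle pole protein with 1 of the longest transcripts, was the gene that replicate 2 of sensitive DMSO set lowest against its group. Its libraries were at 144, 83.7 and 154 CPM in sensitive DMSO, 65.6, 63.3 and 58.6 in sensitive GNE-7883, 159, 151 and 181 in resistant DMSO and 150.3, 162 and 163 in resistant GNE-7883. The fold change in sensitive cells was -1.03 ± 0.16, and -1.26 without that library, next to -1.25 for TPX2. Its line difference in DMSO, 0.36 ± 0.15, did not pass (adjusted p = 0.0616), though it did under 7 of 20 alternative settings. Without replicate 2 of sensitive DMSO it was 0.14 (adjusted p = 0.0946), below the 0.25 of HMMR. CENPE was next lowest in that library against replicates 1 and 3, at 62.9%, followed by MKI67 at 65.4%, CENPF at 69.1% and SMC4 at 70.8%. The line difference of CENPE was 0.21 ± 0.15, or 0.02 without that library, and its fold change in sensitive cells -1.01 ± 0.16, or -1.21.

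Cytokinesis closes the cycle: PRC1 bundles the midzone, ECT2 switches on RhoA at the cortex, and ANLN (anillin) ties the contractile ring to the membrane. ANLN (ENSG00000011426, chr7:36389806-36453791) had the largest line difference of the 53 genes. By library ANLN was at 794, 617 and 794 CPM in sensitive DMSO, 249, 255 and 249 in sensitive GNE-7883, 1298, 1228 and 1329 in resistant DMSO and 1073, 1138 and 1088 in resistant GNE-7883. All 6 resistant libraries were above all 6 sensitive ones, with or without inhibitor. The log2 fold change was -1.55 ± 0.08 in sensitive and -0.22 ± 0.08 (adjusted p = 0.0814) in resistant cells, the second not past the threshold, and the line difference was 0.81 ± 0.08 (adjusted p = 3.1e-07) in DMSO and 2.13 ± 0.08 in GNE-7883. Without replicate 2 of sensitive DMSO the ANLN fold change in sensitive cells was -1.66. The line difference in DMSO was then 0.70, still the largest of the set, and the difference of responses 1.44. The fold change in resistant cells, -0.22, passed without that library (adjusted p = 0.0004), and passed under 3 of 20 alternative settings. ANLN alone made up 8.67% to 10.5% of the counts of the 53 genes in sensitive DMSO, 7.61% to 7.72% in sensitive GNE-7883, 14.9% to 15.3% in resistant DMSO and 14.2% to 14.6% in resistant GNE-7883. PRC1 fell least of the 3, from 285, 283 and 298 to 139, 138 and 130.2 CPM (-1.09 ± 0.05), and was at 307, 286 and 300.3 CPM in resistant DMSO and 266, 273 and 263 in resistant GNE-7883. ECT2 was at 177, 146 and 176 CPM in sensitive DMSO, 73.8, 76.2 and 76.9 in sensitive GNE-7883, 157, 148 and 163 in resistant DMSO and 134, 145 and 140.2 in resistant GNE-7883. It fell in sensitive cells (-1.14 ± 0.07), and did not pass between the lines in DMSO with all libraries (-0.09 ± 0.07, adjusted p = 0.301). Without replicate 2 of sensitive DMSO that line difference was -0.17 and passed (adjusted p = 0.00848), and it passed under 1 of 20 alternative settings.

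Condensin folds chromosomes, with SMC2 and SMC4 as its ATPases and NCAPG, NCAPH and NCAPD2 as the other subunits of condensin I. TOP2A untangles DNA, and MKI67 coats mitotic chromosomes. All 7 genes fell in sensitive cells and 3 of them at least 2-fold, with the smallest group median, -0.95. NCAPH, the kleisin of condensin I (ENSG00000121152, chr2:96335787-96373845), fell most: it was at 49.3, 48.4 and 50.8 CPM in sensitive DMSO, 17.1, 16.9 and 17.8 in sensitive GNE-7883, 51.6, 52.2 and 53.5 in resistant DMSO and 45.5, 46.3 and 45.1 in resistant GNE-7883. It fell in both lines, with log2 fold changes of -1.52 ± 0.05 in sensitive and -0.20 ± 0.05 (adjusted p = 0.0225) in resistant cells, with the largest difference of the group (1.32 ± 0.08). SMC4, its partner in the same ring (ENSG00000113810, chr3:160399274-160434962), fell least of the 53 genes with all libraries, -0.67 ± 0.10; without replicate 2 of sensitive DMSO it was at -0.82, below BUB3 at -0.77, INCENP at -0.78 and KIF18A at -0.79. Its libraries were at 163, 116 and 164 CPM in sensitive DMSO, 93.7, 93.7 and 91.6 in sensitive GNE-7883, 189.5, 177 and 196 in resistant DMSO and 159, 177 and 174 in resistant GNE-7883, so the sensitive groups did not overlap even with its low library. SMC2 and SMC4 serve condensin I and II alike, while NCAPH, NCAPG and NCAPD2 belong to condensin I; the difference between these subsets was not tested.

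The condensin subunits went both ways between the lines in DMSO. NCAPD2 (ENSG00000010292, chr12:6493356-6531955) was lower in resistant cells, at 334, 329.9 and 343 against 414, 411 and 431 CPM (-0.32 ± 0.04, adjusted p = 2e-05). SMC2 was higher, at 211, 204 and 224 against 169, 133 and 173 CPM (0.43 ± 0.08, adjusted p = 0.00048), as were SMC4 by 0.34 ± 0.10 and TOP2A by 0.24 ± 0.07. These 3 differences were 0.32, 0.20 and 0.15 without replicate 2 of sensitive DMSO and still passed; without replicate 3 of resistant DMSO SMC4 (adjusted p = 0.0533) and TOP2A (adjusted p = 0.0928) did not, nor did TOP2A without replicate 1 of resistant DMSO (adjusted p = 0.0534). With inhibitor NCAPD2 was at 232, 232 and 233 CPM in sensitive and 319, 320.3 and 323 in resistant cells, the smallest gap between the lines among the 53 genes, and SMC2 at 86.3, 90.2 and 83.3 and 196, 218 and 205 CPM. MKI67, the usual proliferation marker, was at 191, 136 and 225 CPM in sensitive DMSO and 111, 90.1 and 84.6 in sensitive GNE-7883, a fold change of -0.95 ± 0.16, or -1.13 without replicate 2 of sensitive DMSO. It was at 175, 180.4 and 243 CPM in resistant DMSO and 188, 173 and 166 in resistant GNE-7883.

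Per length, in the authors' RPKM, the 53 genes span a wide range of level. In sensitive DMSO ANLN (149), CCNB1 (147) and TOP2A (124) were highest, and CENPE (4.26) and KIF15 (5.80) lowest, in RPKM. In sensitive GNE-7883 the same 3 genes led, with TOP2A at 60.2, CCNB1 at 51.13 ± 1.75 and ANLN at 51.05 ± 0.67 RPKM. The SDs in sensitive DMSO were 19.8 for ANLN and 11.3 for CCNB1, so these genes cannot be ranked apart in either group. CENPE had the lowest mean in both groups, 4.26 ± 1.02 and 2.11 ± 0.37 RPKM. KIF15 was next at 5.80 ± 0.66 and 2.43 ± 0.04 RPKM, within overlapping SDs, so CENPE and KIF15 are not ranked apart either.

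The motif split of the promoters was set beside the response. The 37 genes with a CHR match had a median log2 fold change of -1.19 in sensitive cells, from -1.77 to -0.67. The 9 genes with a window and no match had a median of -1.44, from -1.65 to -1.01, and the 7 with no window -1.27. These values are a description, since genes were not drawn at random and the 3 sets overlap in range.

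Other cell cycle genes outside the set were read from lists, each with its count and median. In sensitive cells 30 of 31 other centromere and kinetochore genes fell (median -1.02), 33 of 36 other spindle, centriole and cytokinesis genes fell and 1, HAUS6, rose (-1.07), 15 of 18 other regulators of mitotic entry and exit fell (-1.12), and 3 of 3 condensin II subunits fell (-0.99). Of 26 DNA replication and G1/S genes 25 fell (-1.10), led by GINS2, a part of the replicative helicase, at -1.78 ± 0.07. The background is the same 28.4% of all genes that fell and 29.8% that rose. The APC/C and cohesin lists gave other counts: of 14 APC/C subunits 4 fell and 2 rose (median -0.18), and of 10 cohesin and loader genes 4 fell and 3 rose (median 0.00). Cohesin, which holds sister chromatids together, ran from SMC3 at -0.38 ± 0.07 to MAU2 at 0.48 ± 0.06. Of 11 DREAM and MuvB genes 6 fell and 2 rose (median -0.32): MYBL2, which encodes B-Myb, fell (-1.76 ± 0.08), and RBL2, the pocket protein p130 of DREAM, rose (0.68 ± 0.08). All 6 cell cycle arrest genes rose in sensitive cells (median 0.75; RBL2 is in this list too), led by CDKN2B, the inhibitor p15, at 1.59 ± 0.06.

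**Figure D5:**
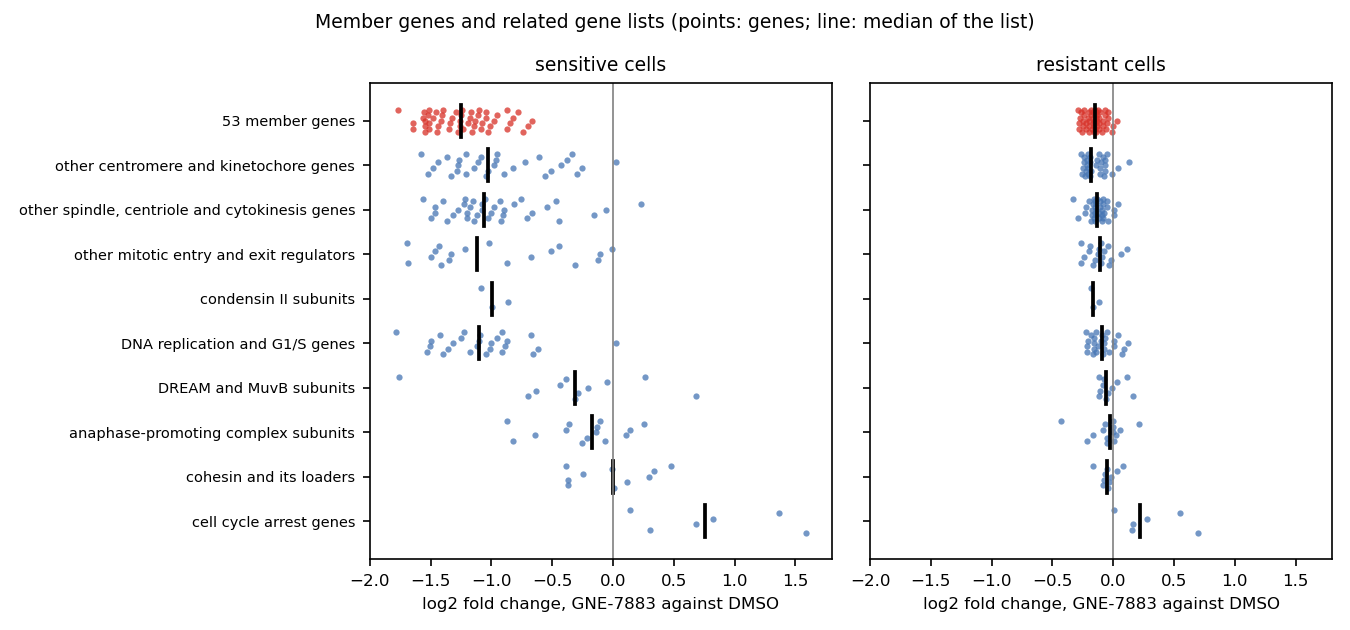
Log2 fold change of GNE-7883 against DMSO (x axes) for the 53 genes in red and 9 related lists in blue (y axis), in sensitive cells on the left and resistant cells on the right; points are genes and black lines medians. On the left the kinetochore, spindle, entry, condensin II and replication lists have medians from -1.12 to -0.99, cohesin and the APC/C lie near 0, and the arrest genes lie above 0; on the right the list medians lie between -0.18 and 0.22.

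In resistant cells few genes of these lists passed the test. Falls passed for 3 of 31 other kinetochore genes, 3 of 36 spindle genes, 3 of 18 entry and exit genes and 2 of 26 replication genes, where 3.97% of all genes fell, and for no condensin II, DREAM, APC/C or cohesin gene. Estimates were negative for 29 other kinetochore, 33 spindle, 16 entry and exit and 20 replication genes, where 50.5% of all genes were. Lower without overlap were 16, 17, 8 and 12 of them, where 16.2% of all genes were, and higher 1, 0, 1 and 0. Of the condensin II, APC/C, cohesin and DREAM lists 3, 10, 8 and 8 estimates were negative. Lower without overlap were 2, 2, 2 and 1 of these genes, and higher 0, 0, 0 and 1. Of the 6 arrest genes 3 rose, where 5.25% of all genes rose (median 0.22). CDKN2B was at 42.8, 39.7 and 42.8 CPM in sensitive DMSO, 119.8, 127 and 129 in sensitive GNE-7883, 24.1, 24.5 and 23.5 in resistant DMSO and 36.1, 33.8 and 35.5 in resistant GNE-7883. Its resistant libraries were below its sensitive ones in both conditions. MYBL2 was at 214, 249 and 211 CPM in sensitive DMSO, 69.1, 64.6 and 65.5 in sensitive GNE-7883, 116, 129.98 and 114 in resistant DMSO and 122, 106 and 118 in resistant GNE-7883. Its untreated resistant libraries lay below its untreated sensitive ones, and the resistant groups overlapped.

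Other measures moved with the sensitive groups. In sensitive cells mitochondrial genes took 0.556% ± 0.0568 of counts with DMSO and 1.01% ± 0.0732 with GNE-7883, and in resistant cells 0.604% ± 0.0698 with DMSO and 0.656% ± 0.0398 with GNE-7883. All 16 mesothelial markers were at 1 CPM or more in the sensitive groups and 13 of 16 in the resistant groups, with summed levels of 16113 to 19307, 12472 to 12873, 7840 to 9087 and 9088 to 10131 CPM in the 4 groups in the order above. The labels give lung epithelium as the tissue but mesothelioma as the type of cell. Of 12 lung epithelial markers 3, 2, 1 and 2 reached 1 CPM, with sums of 94.7 to 115.5, 755 to 784, 3.22 to 4.11 and 4.01 to 4.68 CPM. SFTPD carried nearly all of that sum in the sensitive groups, while NKX2-1, the defining factor, was at 0 to 0.0177 CPM. Of 8 blood markers, with sums up to 6.6 CPM, CD3E and MS4A1 had no counts, and of 5 endothelial markers KDR carried sums of 49.1 to 63.5, 180.2 to 196, 22.7 to 24.0 and 32.03 to 35.1 CPM. The part of these differences in the fall of the mitotic genes was not tested.

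Some counts are uncertain because genes overlap or have copies, and the kit does not mark strand. Of the 50-base stretches of their transcripts, NUSAP1 shares 67.97% and PRC1 63.89% with readthrough gene models that have no row in the table. NCAPG shares 33.33% with LCORL, SMC4 26.19% with TRIM59, FOXM1 20.01% with ITFG2 and CDCA3 16.78% with GNB3, their overlapping neighbours. KIF4A shares 14.1% with its copy KIF4B, and CDC20 9.03% with a pseudogene. For these 8 genes the level depends on how shared reads were assigned, and antisense reads cannot be told apart.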

How the data were processed

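Per the labels' protocols, total RNA went into TruSeq RNA v2 libraries, read from 1 end over 50 bases, 56 M reads per sample on average. The submitters' processing notes name GSNAP 2013-10-10, limma and GRCh38.p10; the counter, its annotation and its strand setting were not found in the sources used here. The authors deposited raw counts (whole numbers of reads for each Ensembl gene) and a table of RPKM. For 12122 genes the ratio of counts to RPKM was checked to be a gene factor times the library's total count. The 53 genes and the related lists were chosen with earlier results of these data known, so their counts are descriptions.

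The deposited counts were tested with edgeR 4.0.16 (R 4.3.3; TMM, filterByExpr, 18035 genes, quasi-likelihood fit of 4 group means to the 12 libraries, leaving 8 residual degrees of freedom; tests two-sided) in 5 comparisons, each adjusted by Benjamini-Hochberg over all genes and called at 0.05. Standard errors are the log2 fold change divided by the square root of the F statistic. The genes named with values per library are, in each of 8 function groups, those with the largest and smallest fall in sensitive cells, every gene called in resistant cells, the largest difference of responses and the largest line differences in DMSO, plus MKI67, which was added after its values were seen; lists are described by counts, medians and at most their largest fall and rise. Coordinates are from GENCODE 29 on GRCh38, promoters from RefSeq. Alternatives were size factors and tests of DESeq2 1.42.0, total count scaling, no filter, a filter at 5 CPM, limma-voom, the replicate number as a block, the 2 groups alone, and each library left out. Total counts of 31878934 to 46962645 make 3 counts about 0.0639 to 0.0941 CPM; the reads carry no molecular identifiers, so such limits describe counting error alone.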

Additional observations from a re-analysis of the deposited data

Results flagged for a closer look

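The GNE-7883 response differed between resistant and sensitive cells for each of the 53 genes by the test of the difference itself, edgeR's quasi-likelihood test of the interaction. The values below are that difference on the log2 scale, resistant minus sensitive, where a positive value means a smaller fall in resistant cells. Groups of 3 libraries were too small for a test of single outlying libraries. Among the mitotic entry genes the difference was CCNA2 1.40, CDCA3 1.36, CCNB1 1.36, PLK1 1.27, AURKA 1.07, CCNB2 1.03, CDC25C 1.03, FOXM1 1.01 and CDK1 0.997. For the checkpoint and APC/C genes the difference was CDC20 1.49, BUB1 1.25, MAD2L1 1.25, UBE2C 1.22, PTTG1 1.20, BUB1B 1.06, TTK 1.05 and BUB3 0.63. Kinetochore genes gave differences of SPC25 1.42, CENPA 1.40, SPC24 1.32, ZWINT 1.17, NDC80 1.13, NUF2 1.12, CENPE 0.75 and CENPF 0.66. In the chromosomal passenger complex the difference was AURKB 1.36, CDCA8 1.32, BIRC5 1.32 and INCENP 0.70. Of the kinesins the difference was KIF18B 1.43, KIF23 1.31, KIFC1 1.14, KIF15 1.08, KIF4A 1.05, KIF2C 0.9998, KIF20A 0.996, KIF11 0.80 and KIF18A 0.60. Spindle factors gave differences of TPX2 1.09, DLGAP5 0.99, ASPM 0.98, NUSAP1 0.98 and HMMR 0.84. The cytokinesis genes gave differences of ANLN 1.32, ECT2 0.98 and PRC1 0.94. Condensin and chromosome structure genes gave differences of NCAPH 1.32, NCAPG 1.24, TOP2A 0.96, SMC2 0.83, NCAPD2 0.78, MKI67 0.77 and SMC4 0.53. With all libraries, differences were smallest for SMC4, KIF18A, BUB3 and CENPF and largest for CDC20, KIF18B, SPC25 and CCNA2.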

How the results depend on the processing

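Over 20 alternative settings (19 for the difference of responses), all 53 genes fell in sensitive cells, were higher in resistant than in sensitive GNE-7883, and had a positive difference of responses. Their medians ran from -1.29 to -1.23, 1.15 to 1.25 and 1.06 to 1.13. In resistant cells the median ran from -0.18 to -0.13 and 49 to 52 genes were negative, but the number that fell, 13, was 21 with the 2 groups alone, with which 1131 of all genes fell, and 1 to 27 with 1 library left out; of all genes, 549 to 1649 then rose and 304 to 1411 fell, where 947 and 716 did with all libraries. In DMSO the 20 higher and 6 lower genes were 28 and 2 with total count scaling, which moved the median of all genes to 0.07, 13 and 6 with the 2 groups alone, and 13 to 22 higher and 5 to 7 lower with 1 library left out; the cause was not tested. With the replicate number as a block, 8 of the 53 genes fell in resistant cells; in DMSO 21 were higher and 6 lower. Whether replicate numbers pair the samples is not settled: of 18 correlations of same-numbered libraries, from -0.12 to 0.18, 1 was over 0.1. Libraries of different numbers were not correlated for reference, so these values cannot exclude pairing. Single-gene calls were lost 90 times and gained 27 times in the resistant response, 38 and 23 times between lines in DMSO, and never in the other 3 comparisons, and no call reversed. With 3 libraries a group, the standard error of a gene's log2 fold change in sensitive cells was 0.04 to 0.16, largest for long transcripts that replicate 2 of sensitive DMSO held at low levels.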
